A study of Mus musculus with 60 samples.

Results

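Genes that hepatocytes express strongly were followed through RNA sequencing libraries of mouse whole blood. The set held 48 genes of the 49315 in each count table. They were listed by name, and all 48 matched 1 gene ID. They comprised 17 plasma carrier proteins and apolipoproteins, 11 coagulation proteins and protease inhibitors, 4 urea cycle enzymes, 4 periportal and 5 pericentral enzymes, 4 other metabolic enzymes and binding proteins, and the 3 genes Hamp, Saa1 and Saa2. Blood came from 60 male CD2F1 mice, bought at 5 to 6 weeks of age, in 10 groups of 6. Mice received vehicle or BIO 300, an oral amorphous dispersion of genistein, as 2 daily doses over 6 days at 50 mg/kg (Low), 100 mg/kg (Med) or 200 mg/kg (High). Vehicle, Low, Med and High mice were bled at 24 h after dosing ended (Day 0), and other mice of the same 4 treatments at 48 h (Day 1). A further pair of Day 1 groups, Vehicle TBI and BIO 300 High TBI, had received 9.2 Gy of total body irradiation (TBI) on Day 0. All mice, controls included, had been dosed orally and were bled once, at death, through a needle in the inferior vena cava under isoflurane, into tubes that fix RNA. Blood taken so can hold whatever entered that needle. A lower number of cells of 1 type cannot be told apart from less RNA per cell of that type. At which step RNA of another tissue entered a library was not tested.

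Hepatocytes make most of the proteins dissolved in plasma and secrete them into the blood that passes through the liver. They also hold the urea cycle, which turns ammonia into urea, and a large family of cytochrome P450 enzymes. Their work is divided along the liver lobule, with gluconeogenesis and urea synthesis stronger near the portal vein and glutamine synthesis and many P450 enzymes stronger near the central vein. The proteins circulate, whereas their mRNAs are made in the hepatocyte, and genes such as Alb and Fga are not typical of blood cells.

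Total counts per mouse ran from 15099415 to 45589415, with a median of 24877993.5. Levels are given as CPM, read counts scaled to a common library size and normalised over all 60 mice by the trimmed mean of M values (TMM), whose factors ran from 0.415 to 2.02. The blood identity of the libraries was plain: Hbb-bs, an adult beta globin, had at least 11014 CPM in every mouse, and Ptprc, the pan-leukocyte antigen CD45, at least 102 CPM. The liver genes lay on top of this in some libraries only.

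Alb, which encodes serum albumin and lies on chromosome 5 (GRCm38, chr5:90460897-90476602, plus strand), exceeded 10 CPM in 17 of 60 libraries and 1 CPM in 22. In 22 others it had 0 counts. Each group held at least 1 library above 10 CPM. In Vehicle Day 0 mice the lowest, median and highest values were 0, 0.124 and 6450 CPM. In Vehicle Day 1 mice they were 0, 0.514 and 826 CPM. Within each group most libraries were near 0 and 1 or a few stood far above them.

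On Day 0 the highest values were 455 CPM in Low (mouse 1), 1113 CPM in Med (mouse 9) and 939.8 CPM in High (mouse 21). On Day 1 they were 18.1 CPM in Low (mouse 33), 1785 CPM in Med (mouse 37) and 481 CPM in High (mouse 43). The 2 irradiated groups reached 16050 in mouse 51 and 3447 in mouse 49 (Vehicle TBI), and 5625 CPM in mouse 57 (BIO 300 High TBI). Groups overlapped in every case, because the low mice of each reached 0.211 CPM or less. A count of 3, taken as the floor, corresponded to 0.0658 to 0.199 CPM by library, which covers counting error only.

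The level of Alb went with whether the animal number was odd or even. All 22 libraries above 1 CPM came from the 30 odd-numbered mice, and none of the 30 even-numbered mice exceeded 0.211 CPM. Over the 30 even-numbered libraries together only 20 reads fell on Alb, at most 3 in 1 library. Among the odd-numbered mice the median was 16.2 CPM, and 8 were at or under 1 CPM. Each group had 3 odd-numbered mice, of which 1 (BIO 300 High Day 0) to 3 exceeded 1 CPM, so the pattern recurred in all 10 groups. The labels give the animal numbers but no cage, day, operator or tube that goes with odd or even, and what differed between those mice was not tested. Total counts of the odd-numbered (17187608 to 45589415) and even-numbered libraries (15099415 to 32949547) overlapped.

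**Figure D1:**
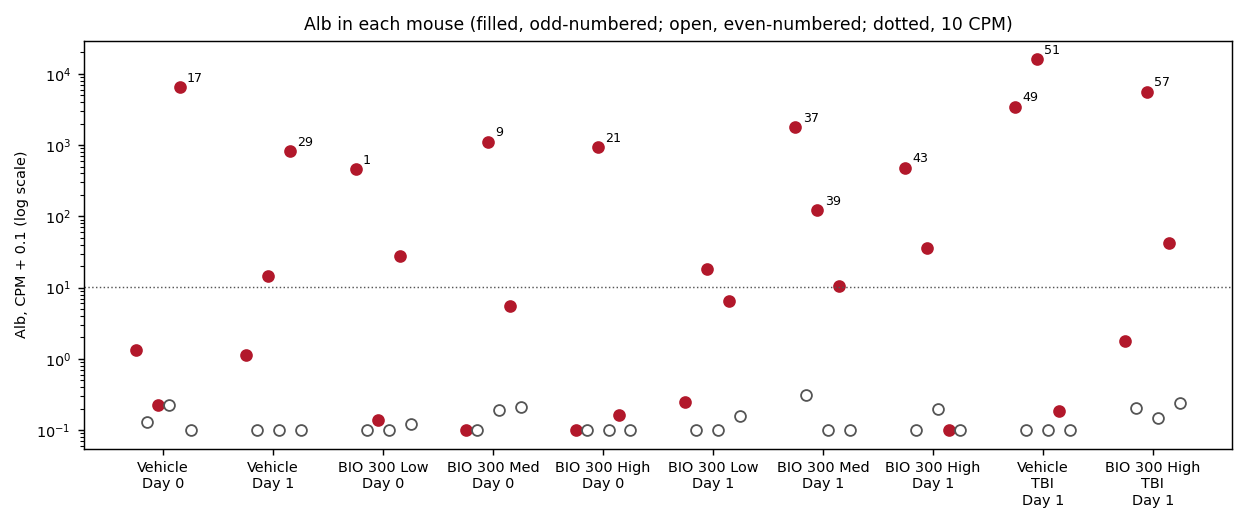
Alb in each of the 60 mice by group, as CPM + 0.1 on a log axis; filled points are odd-numbered and open points even-numbered animals, the dotted line marks 10 CPM, and numbers name mice above 100 CPM. Filled points alone rise above the line, with mouse 51 highest at 16050 CPM.

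The other members appeared in the same libraries as Alb. At least 24 of the 48 exceeded 10 CPM in 10 libraries, all odd-numbered, and all 48 did so in mice 17 and 51. Together the 48 genes took 8.83% of all counts in mouse 51, 3.31% in mouse 57, 2.52% in mouse 17 and 2.31% in mouse 49. In the even-numbered libraries they took 0.0103% to 0.0309%, and at most 0.00210% once Glul, Ass1 and Trf were set aside. For 45 of the 48 genes, every library above 10 CPM also had Alb above 10 CPM. The exceptions were Glul in 43 libraries, Ass1 in 26 and Pck1 in 2. The non-members whose log2(CPM + 1) was most like that of Alb over the 60 mice were Pzp (Pearson r = 0.985), Mug1 (0.979), Ces3a (0.973), Apoc1 (0.972) and Slc38a3 (0.972).

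**Figure D2:**
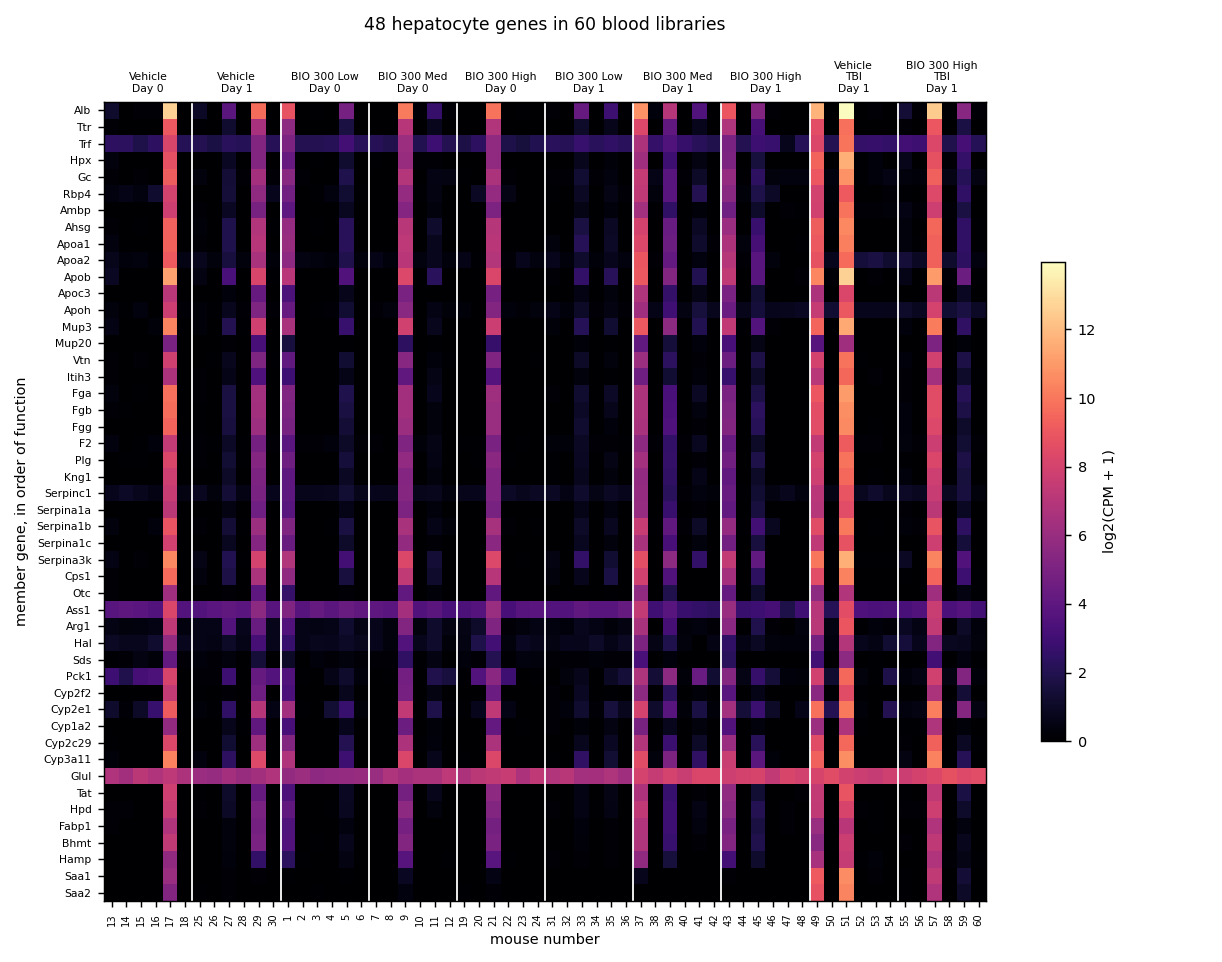
All 48 members (rows, by function) in all 60 mice (columns, by group and animal number), as log2(CPM + 1) in colour. Bright columns, such as mice 17, 49, 51 and 57, hold all members at once, whereas Glul, Ass1 and Trf form continuous rows across mice.

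Plasma carrier proteins and apolipoproteins made up the largest functional group. After Alb, Apob, the structural protein of lipoprotein particles, had the highest mean, 236 CPM, with 6384 CPM in mouse 51. Mup3, a major urinary protein that binds pheromones, reached 2790 CPM in mouse 51 and 0.188 CPM at most in any even-numbered mouse. Hpx, which binds free heme, reached 3238 CPM, and Gc, the vitamin D carrier, 1765 CPM, both in mouse 51. Apoc3, an inhibitor of lipoprotein lipase, and Mup20 had 0 counts in all 30 even-numbered libraries. Near-identical copies exist for the Mup genes, so the share of reads assigned to each is uncertain.

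Among the coagulation proteins and protease inhibitors, Serpina3k led with a mean of 146 CPM and 3265 CPM in mouse 51. The 3 fibrinogen chains, whose genes lie together on chromosome 3, followed each other: Fga, Fgb and Fgg reached 2138, 1622 and 1524 CPM in mouse 51. In the even-numbered libraries Fga had 1 read in all, Fgb 4 and Fgg 0. F2 (prothrombin), Plg (plasminogen) and Kng1 (kininogen) peaked in the same library, at 568, 972 and 771 CPM. Serpinc1, the gene of antithrombin, was the exception at low level, with a median of 0.538 CPM and a highest value of 1.03 CPM in even-numbered mice. Serpina1a, Serpina1b and Serpina1c, copies of the alpha-1-antitrypsin gene, share much of their sequence, and their separate values are likewise uncertain.

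The urea cycle enzymes split into liver-restricted and broader members. Cps1, which makes carbamoyl phosphate in mitochondria, reached 1321 CPM in mouse 51, and Otc, the next enzyme, 112 CPM. In the even-numbered libraries Cps1 had 3 reads and Otc 1. Arg1, arginase, reached 487 CPM in mouse 51 and lay at a median of 0.329 CPM in even-numbered mice. Ass1, argininosuccinate synthase, was present in every library, between 3.27 and 17.6 CPM in the even-numbered ones, and rose to 387 CPM in mouse 51.

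Enzymes from both ends of the lobule were found. Of the periportal enzymes, Cyp2f2 reached 360.1 CPM, Pck1, which commits carbon to gluconeogenesis, 756 CPM, Hal (histidine ammonia-lyase) 120.1 CPM and Sds (serine dehydratase) 46.6 CPM, all in mouse 51. Of the pericentral enzymes, Cyp3a11 reached 1599 CPM and Cyp2c29 759 CPM in mouse 51, whereas Cyp2e1 and Cyp1a2 were highest in mouse 57, at 1197 and 106 CPM. Other metabolic enzymes peaked in mouse 51: Tat (tyrosine aminotransferase) at 461 CPM, Hpd at 278 CPM, Bhmt at 205 CPM and the fatty acid carrier Fabp1 at 139.8 CPM. Hamp, the iron hormone hepcidin, reached 178 CPM and exceeded 10 CPM in 7 libraries. Saa1 and Saa2, serum amyloid A genes that hepatocytes induce in the acute phase response, exceeded 10 CPM in only 4 libraries, mice 17, 49, 51 and 57.

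Per kilobase of exon (GENCODE M21, same build), the order in mouse 51 was Alb (6853 CPM per kb), Mup3 (2612), Hpx (2159.8), Serpina3k (1587) and Apoa2 (1481). In mouse 17 it was Alb (2754), Mup3 (1261), Apoa2 (1006), Serpina3k (717) and Apoa1 (528), so Hpx, at 280.0 CPM per kb, held a lower place there. Apob, second by CPM, had 458 CPM per kb in mouse 51, its exons covering 13934 bases. Glul had 73.8 and 44.6 CPM per kb in these libraries. Exon length was the union of all annotated exons of a gene, which can exceed the length of any single transcript.

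Only 3 members were at or above 1 CPM in at least 50 of the 60 mice, namely Glul, Ass1 and Trf. Glul, glutamine synthetase, which blood cells also express, ran from 48.8 to 435 CPM and did not follow Alb (r = 0.172 over 60 mice, against 0.658 to 0.996 for the other 46 members). Trf, transferrin, lay between 2.33 and 6.20 CPM in even-numbered libraries and reached 999.8 CPM in mouse 51. Pck1 and Cyp2e1 were raised in a few libraries without Alb. Pck1 reached 11.5 CPM in mouse 20 and 11.3 in mouse 30, and Cyp2e1 reached 5.59 CPM in mouse 16, where Alb was at most 0.126 CPM. These 3 mice also had the highest summed level of 8 adipocyte genes among the even-numbered libraries, 108 CPM (mouse 16) and 73.7 CPM in each of mice 20 and 30, against a median of 14.2 CPM. The part of fat cells in those Pck1 and Cyp2e1 values was not tested.

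Hepatocyte genes outside the set also peaked in odd-numbered libraries, but some had a low level in many others. Of 30 other hepatocyte genes, the summed level was 4.66 to 9034 CPM in odd-numbered and 2.86 to 10.2 CPM in even-numbered libraries, and Itih4 had a mean of 68.2 CPM. Above 1 CPM in even-numbered libraries were Slc10a1 (24 of 30), Tdo2 (18), Sult1a1 (15) and Itih4 (11). Among hepatocyte transcription factors so were Nr1h4 (17) and Prox1 (8). Hnf4a, a transcription factor of the hepatocyte programme, stood at 237 CPM in mouse 51, 96.7 in mouse 57, 87.0 in mouse 49 and 69.96 in mouse 17, with a highest even-numbered value of 0.372 CPM. Over 11 hepatocyte transcription factors the summed level reached 533 CPM in odd-numbered and 6.25 CPM in even-numbered mice, and Prox1 was the second most abundant, at 91.1 CPM in mouse 51.

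Markers of other cells of the liver were also measured. Over 6 Kupffer cell genes, the resident macrophages of the liver, the sum was 0 to 484 CPM in odd-numbered and 0 to 8.05 CPM in even-numbered mice; Clec4f, their most restricted marker, reached 15.7 CPM in mouse 51, with 0 counts in 29 of 30 even-numbered libraries. Cd5l had the highest Kupffer level, 313 CPM in mouse 51. Over 6 cholangiocyte genes the sum reached 139 CPM in mouse 51, of which Spp1 made 122 CPM. The 5 matched genes of the sinusoidal endothelium summed to 8.25 to 83.4 CPM in odd-numbered and 7.08 to 129 CPM in even-numbered mice, with Stab2 and Bmp2 the most abundant. The 6 stellate cell genes summed to 45.3 to 738 and 51.7 to 1077 CPM, mostly Ecm1 and Reln. Lrat of this list, by contrast, reached 4.76 CPM in mouse 51, with 0 counts in 27 of 30 even-numbered libraries. Dcn, Des and Pdgfrb were highest in mouse 57, whereas Ecm1 and Reln peaked in mice 60 and 47.

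Markers of other organs were low or followed other libraries. Kidney tubule genes summed to at most 2.59 CPM and intestinal epithelium genes to at most 18.4 CPM, of which 14.4 CPM came from Fabp2 in mouse 51. Exocrine pancreas genes reached 76.3 CPM, nearly all of it Cela1, with Cpa1 at most 0.268 CPM. Adipocyte genes reached 668 CPM in mouse 57, of which Lpl was 636 CPM and Adipoq 0.0956 CPM, and 357 CPM in mouse 39, where Fabp4 was 150.0 CPM and Adipoq 22.5 CPM. Skeletal and smooth muscle genes reached 616 CPM in mouse 57, led by Ckm (307 CPM), and 81.3 CPM in mouse 16. Mouse 57 thus combined liver and muscle transcripts.

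Upstream sequences of 4 genes are shown because their genes carry the results: Alb as the reference of the set, Fga as a fibrinogen chain, and Saa1 and Saa2 as the pair that differed most between libraries. Each is the 250 bases before the RefSeq start (GRCm38.p6), 5′ to 3′ on the strand of the gene. Capitals in Alb and Fga mark GTTAAT on either strand, the half-site of HNF1 factors. Capitals in Saa1 and Saa2 mark TTNNGCAA on either strand, a C/EBP-type motif. The windows are chr5:90460620-90460869 (plus), chr3:83025903-83026152 (plus), chr7:46742981-46743230 (minus) and chr7:46751583-46751832 (plus).
Alb: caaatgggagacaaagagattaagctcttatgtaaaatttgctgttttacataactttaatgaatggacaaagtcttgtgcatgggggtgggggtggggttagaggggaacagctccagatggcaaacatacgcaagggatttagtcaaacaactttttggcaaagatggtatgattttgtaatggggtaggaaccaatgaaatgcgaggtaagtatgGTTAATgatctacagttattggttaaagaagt
Fga: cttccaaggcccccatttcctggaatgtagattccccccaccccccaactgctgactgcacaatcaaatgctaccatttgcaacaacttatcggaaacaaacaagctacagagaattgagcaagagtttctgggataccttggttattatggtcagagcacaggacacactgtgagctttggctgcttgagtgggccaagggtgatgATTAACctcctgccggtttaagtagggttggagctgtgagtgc
Saa1: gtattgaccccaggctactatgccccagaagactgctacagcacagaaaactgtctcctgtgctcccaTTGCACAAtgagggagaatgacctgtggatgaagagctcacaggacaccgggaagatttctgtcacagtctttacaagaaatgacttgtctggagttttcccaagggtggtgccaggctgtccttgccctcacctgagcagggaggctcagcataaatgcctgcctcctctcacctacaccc
Saa2: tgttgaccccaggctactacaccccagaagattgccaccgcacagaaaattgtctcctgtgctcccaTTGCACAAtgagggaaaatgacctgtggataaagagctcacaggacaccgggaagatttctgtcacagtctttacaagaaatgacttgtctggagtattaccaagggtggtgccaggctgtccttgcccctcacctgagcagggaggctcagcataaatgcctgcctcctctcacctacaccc

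The Alb match lies 32 to 27 bases before the start and the Fga match 43 to 38 bases before it. A window was available for 38 of the 48 members. GTTAAT was in 10 of them, 26.3%, against 7.49% of 27025 genes with a window of the same length. TTNNGCAA was in 13, 34.2%, against 10.8% of all genes. The Saa1 and Saa2 windows were identical at 238 of 251 aligned columns (94.8%), and each held the TTNNGCAA match at nearly the same distance, 182 and 183 bases before the start. Alb and Fga also held TTNNGCAA. These matches describe letters only.

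Within libraries rich in liver transcripts, members differed in how closely they kept their proportion to Alb. Ratios to Alb were taken in the 13 libraries with at least 1000 Alb counts, mice 1, 5, 9, 17, 21, 29, 37, 39, 43, 49, 51, 57 and 59. The standard deviation of the log2 ratio over these libraries was smallest for Gc (0.21), Plg (0.24) and Apob (0.24). Gc, for instance, had 78.0 to 146 counts per 1000 Alb counts although Alb itself ran from 1009 to 569889 counts. The spread was largest for Saa2 (4.72), Saa1 (3.63) and Glul (2.67), followed by Pck1 (1.56), Ass1 (1.31), Fabp1 (0.98) and Cyp2e1 (0.91). The spread of Glul came from its steady level beside a varying Alb count, with log2 ratios from -6.03 in mouse 51 to 2.98 in mouse 59.

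**Figure D3:**
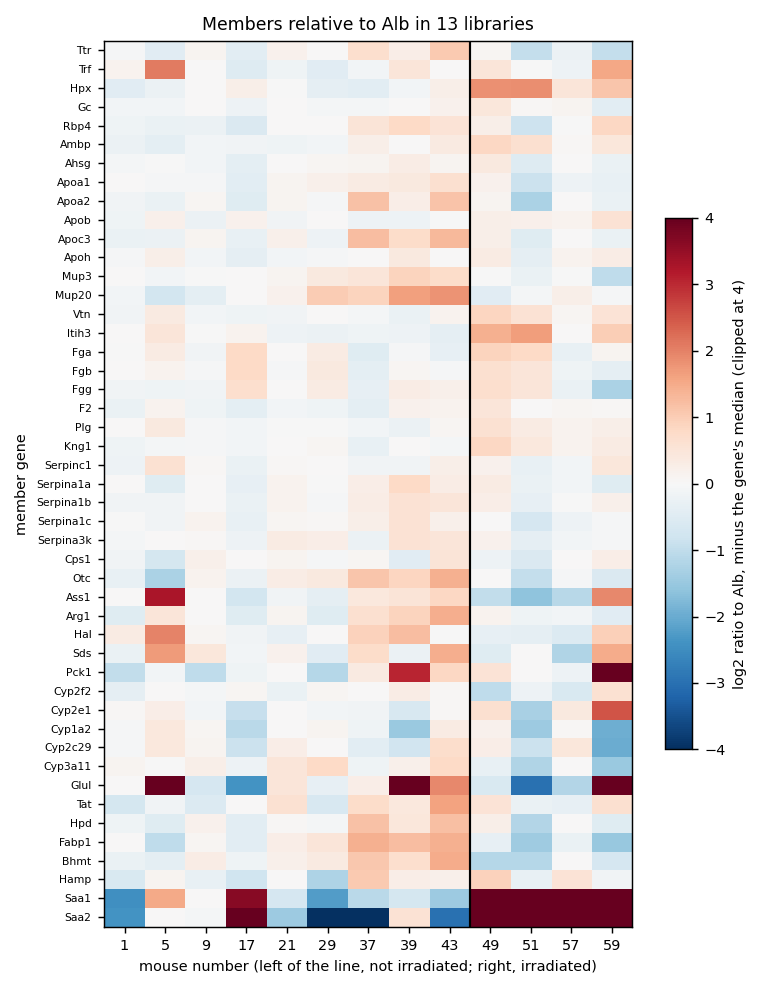
Log2 ratio of each of 47 members to Alb, minus the median of that gene, in the 13 libraries with at least 1000 Alb counts; mice 1 to 43, left of the line, were not irradiated, and mice 49 to 59 were. Most rows stay pale, whereas Saa1 and Saa2 are red in all 4 irradiated libraries and in mouse 17.

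Some enzymes varied together in part of these libraries. Cyp2e1, Cyp1a2 and Cyp2c29, all pericentral, were low per Alb count in mice 17 and 51, whereas Cyp3a11, also pericentral, was low in mouse 51 (log2 ratio -3.33) but in mouse 17 (-2.33) lay near mice 37 (-2.30) and 49 (-2.44). Cyp1a2 had 8.55 and 6.58 counts per 1000 Alb counts in mice 17 and 51, and 16.2 to 23.7 in mice 1, 5, 9, 21, 29, 37, 43, 49 and 57. Mice 39 and 59 were lower still, at 5.95 and 4.29, but on 6 and 5 reads of Cyp1a2. Cyp2c29 was low in mouse 39 too, at a log2 ratio of -4.29 against -4.40 in mouse 17. In mouse 59 these genes parted. There the log2 ratio of Cyp2e1 (-0.09) was the highest of the 13 libraries, and those of Cyp2c29 (-5.51) and Cyp1a2 (-7.73) were the lowest. The periportal Cyp2f2 was lowest in mouse 49, at 13.0 per 1000, and lay between 17.1 and 39.5 in the other 12 libraries. The log2 ratio of Cyp2e1 to Cyp2f2 ran from 1.57 in mouse 51 to 4.57 in mouse 59. Mouse 59 also had a summed adipocyte level of 281 CPM, a tissue list with which Cyp2e1 was high in mouse 16 as well, and its part was not tested.

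Fabp1 and Apoc3 were highest per Alb count in the unirradiated Day 1 mice 37, 39 and 43. Fabp1 had 61.5, 53.5 and 62.0 counts per 1000 Alb counts in these and 7.72 to 32.3 in the other 10, with the highest of those in mouse 29, the Vehicle Day 1 library. Apoc3 had 58.9, 41.6 and 61.6 in the same order against 18.2 to 30.0 in the rest. The 3 libraries came from BIO 300 Med (37 and 39) and High (43) mice, and no other unirradiated BIO 300 library of Day 1 reached 1000 Alb counts. The ratios also moved with gene length in the pairs of libraries compared, each of which had mouse 37 or 43 first. Other pairs were not compared. Between libraries, the difference in log2 ratio fell with exon length over 44 members, with a Spearman correlation across genes of -0.353 for mouse 37 minus 51, -0.256 for 43 minus 51, -0.339 for 43 minus 17 and -0.415 for 37 minus 9. Fabp1 and Apoc3 are short, with 553 and 1014 bases of exon, and the short Apoa2 (537 bases) was likewise highest in mice 37 and 43, at log2 ratios of -1.90 and -1.94. The long Bhmt (5758 bases) and Otc (4241 bases) were also highest in mice 37, 39 and 43. Their log2 ratios there were -4.07, -4.47 and -3.66 for Bhmt and -5.10, -5.36 and -4.78 for Otc. Arg1, Hpd and Ttr were highest in these 3 libraries too. The part of length or RNA quality in these ratios was not tested. Fga ran the other way in part, highest in mice 49 (143 per 1000), 17 (135) and 51 (133) and 55.8 to 97.2 in the other 10 libraries.

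Saa1 and Saa2 stood apart in irradiated mice. Per 1000 Alb counts, Saa1 had 157 counts in mouse 49, 99.3 in mouse 51, 29.0 in mouse 57 and 39.5 in mouse 59, all 4 irradiated. In the 9 unirradiated libraries it had 10.0 in mouse 17 and 0 to 1.97 in the others, with no overlap. The counts behind these were 18413, 56601, 8542 and 46 reads in the irradiated libraries, 1533 in mouse 17 and 0 to 42 in the other 8.

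Saa2 followed the same order, with 129, 84.2, 19.8 and 26.6 counts per 1000 Alb counts in mice 49, 51, 57 and 59. It had 5.89 in mouse 17, at most 0.301 in the other 8 unirradiated libraries, and 0 reads in 5 of them. In mice 5 and 39, with 1520 and 1009 Alb counts, 3 reads would already correspond to 1.97 and 2.97 per 1000, so a low ratio was not detectable there. Reads of Saa1 and Saa2 may be shared between these close copies. The 4 irradiated libraries came from both vehicle (49 and 51) and BIO 300 High mice (57 and 59), all bled on Day 1, and the vehicle-treated mice had the higher ratios in both genes, a pair against a pair that no test was run on.

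Of 47 member ratios, 4 were higher in all 4 irradiated than in all 9 unirradiated libraries, Saa1, Saa2, Hpx and Kng1, and 0 were lower. Of the 9 other acute phase genes, 0 were higher and 0 lower without overlap. Among 30 other hepatocyte genes 1 had no overlap, Itih4, which is 3.33%. The share over all genes was not taken, so how often a ratio to Alb separates these libraries is not known. Hpx had 77.7 to 202 counts per 1000 Alb counts in irradiated and 40.8 to 65.9 in unirradiated libraries. With a minimum of 100 Alb counts (4 against 15 libraries) Kng1 overlapped and 3 were higher, with 0 of the 30 other genes. With 10000 (3 against 7 libraries) 5 were higher, Plg being added, and 2 were lower, Mup3 and Ass1, with 3 of the 30 other genes higher. With the summed 48 members in place of Alb as denominator, Saa1 and Saa2 alone were left. The 6 Kupffer cell genes summed to 83.1, 484, 188 and 5.16 CPM in the irradiated mice 49, 51, 57 and 59. In the 9 unirradiated libraries they summed to 4.23 (mouse 21) to 22.8 CPM (mouse 17), so mouse 59 overlapped with these. The part of Kupffer cells in the ratios was not tested.

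**Figure D4:**
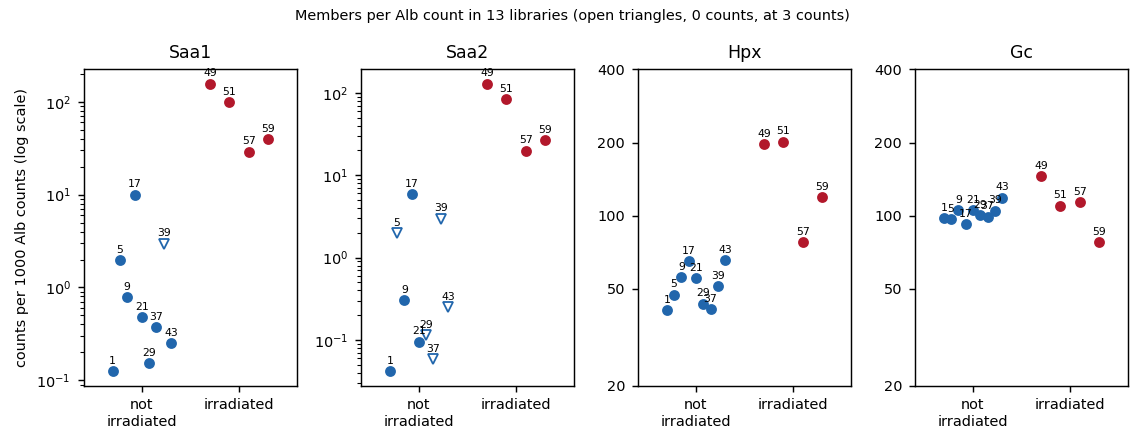
Counts of Saa1, Saa2, Hpx and Gc per 1000 Alb counts (log axes) in the 9 unirradiated (blue) and 4 irradiated (red) libraries with at least 1000 Alb counts, labelled by mouse; open triangles stand at the value of 3 counts where the gene had 0. Saa1 is at least 29.0 in irradiated and at most 10.0 in unirradiated libraries, whereas Gc overlaps.

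The groups were compared next, to see what these genes contribute to the contrasts of the study. Each pair of groups was fitted with edgeR's quasi-likelihood test over all genes, and a gene was called at a Benjamini-Hochberg adjusted p under 0.05 with an absolute log2 fold change over 1. Of the 10 comparisons, 5 have Vehicle Day 0 as control, 4 have Vehicle Day 1, and Vehicle Day 1 and Vehicle TBI also serve as the treated side of others, so their values are not independent. None of the 10 comparisons gave a call for more than 4 members, although the median fold change of the members went as far as -4.84.

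On Day 0 the Low group had 2 of 48 members called, both lower, against 4.50% of all genes. They were Saa2 (log2 fold change -8.38, SE 2.40, adjusted p = 0.0353) and Saa1 (-8.69, SE 2.57, adjusted p = 0.0402) by edgeR. Both rested on mouse 17: it had 1533 Saa1 and 902 Saa2 reads, the other 5 controls had 0 Saa1 and at most 1 Saa2 read, and the Low mice had at most 3 Saa1 reads. The 2 groups overlapped and the fitted fold depends on the prior count. Both genes reached the minimum of 10 counts for testing only through mouse 17, so their calls depend on that filter. DESeq2 gave both no adjusted p and called Glul (-1.04) instead. Without any 1 of the 6 Low mice the edgeR adjusted p of both genes missed the threshold. The Med and High groups on Day 0 had 0 of 48 members called by edgeR against 0.00% of all genes each, with 2 members in each at an unadjusted p under 0.05. DESeq2 called 0 as well, but gave 47 of the members no adjusted p.

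On Day 1 the Low group had 0 of 46 tested members called by edgeR against 0.00% of all genes. At an unadjusted p under 0.05, however, stood 42 of these 46 (4458 of 24118 genes overall), with a median log2 fold change of -4.84, and DESeq2 called 1 while giving 42 no adjusted p. Without mouse 29, the control with 826 CPM of Alb, the median was -0.08. Vehicle Day 1 against Vehicle Day 0 had 0 of 48 called by edgeR against 0.00%, with 3 members at an unadjusted p under 0.05, and 0 called by DESeq2, which gave 47 no adjusted p.

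The Med and High groups on Day 1 had 1 of 47 members called each, Glul, against 48.8% and 47.8% of all genes. Glul had a lowest, median and highest level of 59.6, 73.0 and 108 CPM in Vehicle Day 1, of 178, 264 and 294 CPM in Med, and of 164, 252 and 286 CPM in High. The groups did not overlap. The log2 fold change of Glul was 1.74 (SE 0.17) and 1.73 (SE 0.17). This depended on the scaling: with library sizes set by total counts the values were 0.35 and 0.20, below the threshold, while the median of all genes moved from -0.38 and -0.48 to -1.76 and -1.96. Hbb-bs moved with Glul, from 55064 to 78559 CPM in Vehicle Day 1 to 210537 to 428148 CPM in Med and 158837 to 407268 CPM in High, and Ptprc fell from 547 to 701 CPM to 102 to 258 and 104 to 282 CPM. The part of these blood cells in the Glul values was not tested.

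Irradiation was examined against both vehicle groups. Against Vehicle Day 0, 1 of 48 members was called in Vehicle TBI, Glul (log2 fold change 1.18, SE 0.21), against 26.9% of all genes. Glul had a lowest, median and highest level of 78.0, 112 and 148 CPM in Vehicle Day 0 and of 183, 234 and 355 CPM in Vehicle TBI. Its log2 fold change was 0.95 without mouse 50 and 0.995 with total counts, under the threshold in both cases. Against Vehicle Day 1, 4 of 48 were called, all higher, against 36.0% of all genes, while DESeq2 called 12 and edgeR with odd or even number as a term 7. The 4 were Glul (1.65, SE 0.20), Saa1 (13.17, SE 3.24, adjusted p = 0.0053 by edgeR), Saa2 (13.15, SE 3.24, adjusted p = 0.0054 by edgeR) and Trf (4.53, SE 1.58, adjusted p = 0.0326 by edgeR).

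These calls of Saa1 and Saa2 rested on 2 of the 6 irradiated mice. Saa1 had 18413 and 56601 reads in mice 49 and 51, and 0 to 3 in the other 4. Saa2 had 15123 and 47976 reads in those mice and 0 or 1 in the other 4. In Vehicle Day 1 mice Saa1 had 0 to 4 reads and Saa2 0 to 3, so the groups overlapped for both genes. Both reached the minimum of 10 counts for testing only through Vehicle TBI, so their calls depend on that filter. The call of Trf was lost without mouse 51 (log2 fold change 2.77) or mouse 49 (4.34), among others. Trf had a lowest, median and highest level of 3.21, 5.15 and 999.8 CPM against 2.33, 3.39 and 37.7 CPM.

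Of 9 other acute phase genes, 5 were called higher in the same comparison, Lcn2, Orm1, Orm2, Fgl1 and Hp, against 36.0% of all genes. Hp (haptoglobin) and Lcn2 (lipocalin) were above 1 CPM in all 60 libraries, whereas Apcs and Saa4 had 0 counts in all 30 even-numbered ones and Fgl1 in 29. The myeloid genes Itgam (log2 fold change 2.67, SE 0.34) and Ly6g (2.89, SE 0.41) were called higher in the same comparison, and their part in the acute phase values was not tested.

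BIO 300 High TBI against Vehicle TBI had 0 of 48 members called by edgeR against 0.00% of all genes. Both the members at an unadjusted p under 0.05 and those called by DESeq2 numbered 0. The median log2 fold change of the members was -1.63. The Saa1 levels of these groups, on reads of 46 and 8542 in mice 59 and 57 and 0 or 1 in the other 4, overlapped with those of Vehicle TBI.

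The direction of the set was decided by single mice. Over the 10 comparisons, the median log2 fold change of the members with all 12 mice ran from -4.84 to 4.18, while that of all genes ran from -0.48 to 0.18. Leaving out mouse 17 turned the medians against Vehicle Day 0 from -3.55 to 6.74 (Low), from -2.26 to 7.61 (Med), from -2.36 to 7.47 (High) and from -2.60 to 7.72 (Vehicle Day 1). Leaving out the highest mouse of the other group, mouse 1, 9, 21 or 29, moved the same medians to -7.27, -8.67, -11.87 and -7.55. Without mouse 29 the medians of Med and High on Day 1 were 6.16 and 4.63, and the members called rose from 1 each to 42 and 34. Without mouse 37 or 43 those medians were -2.38 and -3.71.

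The irradiated comparisons moved as far. Without mouse 17, 44 of the 48 members were called in Vehicle TBI against Vehicle Day 0, with a median of 12.12 in place of 1.4999, and without mouse 51 the median was -0.02. Without mouse 29, 42 were called against Vehicle Day 1, with a median of 9.12 in place of 4.18, and without mouse 51 it was 2.47. Between the irradiated groups the median was -8.36 without mouse 57 and 0.18 without mouse 51.

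**Figure D5:**
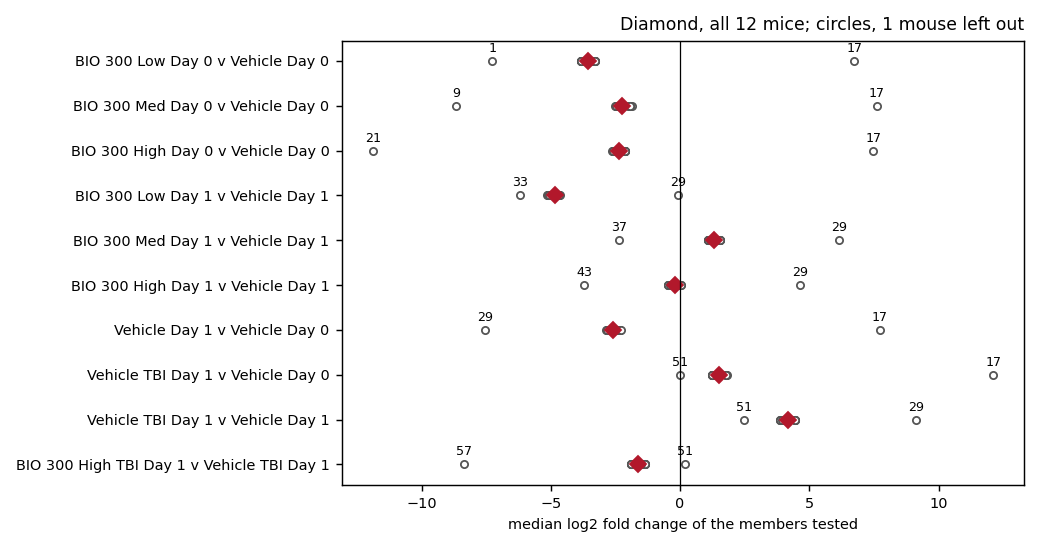
Median log2 fold change of the members tested in each of the 10 comparisons, with all 12 mice (diamonds) and with each mouse left out in turn (circles); numbers name the mouse left out at each end. In 8 comparisons the circles lie on both sides of 0; Low on Day 1 and Vehicle TBI against Vehicle Day 1 are the exceptions.

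The level of Alb itself was compared by a 2-sided exact permutation test of mean log2(CPM + 1), 6 against 6 mice (924 splits). The largest difference was between Vehicle TBI (mean 4.31, SD 6.66) and Vehicle Day 0 (2.37, SD 5.06), 1.94 (exact permutation p = 0.751). The smallest of the 10 p-values was 0.478 (exact permutation test), for High against Vehicle on Day 0, with a difference of -0.71. All 10 were 1 after Benjamini-Hochberg adjustment. The differences were thus smaller than the spread between mice within groups.

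The even-numbered mice allowed a view of the members without Alb-rich libraries, 3 against 3 in each comparison. Only 12 to 15 members then passed the minimum of 10 counts, and their median log2 fold changes ran from -0.52 to 0.60. No member was called by edgeR in 6 comparisons, where 0.00% of all genes were called, with 0 to 3 members at an unadjusted p under 0.05. DESeq2 was not run on these mice. On Day 1, Med had 5 of 13 members called against 43.8% of all genes and High had 4 of 13 against 43.9%. Vehicle TBI had 6 of 15 called against 39.4% (Vehicle Day 0) and 6 of 14 against 42.9% (Vehicle Day 1).

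Apoh, apolipoprotein H, was called higher in all 4 of these. It had 3, 3 and 4 reads in even-numbered Vehicle Day 1 mice, 8, 4 and 8 in Med, 9, 7 and 14 in High and 21, 16 and 16 in Vehicle TBI, with log2 fold changes of 2.70 (SE 0.61) in Med, 3.10 (SE 0.56) in High and 3.25 (SE 0.57) in Vehicle TBI against Vehicle Day 1. Apoa2 was called higher in Vehicle TBI, with 10, 47 and 36 reads against 12, 9 and 7 in Vehicle Day 1 (log2 fold change 2.44, SE 0.47). Ambp was called higher there against both controls, on 2, 4 and 5 reads against 0 or 1, and Gc and Cyp2e1 against Vehicle Day 0 and Vehicle Day 1 respectively, while Sds was called lower against Vehicle Day 0 (0 reads against 3 or 4). Ambp, Gc and Sds, and Apoh against Vehicle Day 0, reached the minimum of 10 counts only through the group where they were high. The same held for Serpinc1 in Med and for Arg1 in Med and High. On the reads of their lower group alone these genes would not have been tested there, so their calls depend on that filter. Cyp2e1 was also called higher in High, at 9 to 25 reads against 0 to 17, and Serpinc1 lower in Med, at 0 to 2 reads against 12 to 25. Glul was called higher in all 4 comparisons, by 1.52 to 1.79. Arg1 was called lower in Med, High and Vehicle TBI against Vehicle Day 1, where it had 22, 24 and 22 reads, against 0 to 6 in the treated mice. Ass1 was called lower in Med (log2 fold change -1.08, SE 0.20), at 4.16 to 6.82 CPM against 12.1 to 13.5 CPM. Alb had 0 to 3 reads in these mice. Blood cell genes moved in the same group comparisons with all mice: Ptprc by -1.67 in Med and -1.50 in High, the T cell gene Cd3e by -1.98 and -1.91, and Alas2, of heme synthesis in red cell precursors, by 2.12 and 2.41. Their part in the Apoh, Arg1, Serpinc1 and Ass1 values was not tested. The even-numbered mice were fitted with TMM scaling alone, with medians over all genes of -0.41 in Med and -0.40 in High.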

How the data were processed

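RNA from whole blood was sequenced at 1 library per mouse. The authors deposited read counts per gene, not normalized, made from reads trimmed by Trimmomatic 0.36, mapped by STAR 2.5.2b against GRCm38 and counted by Subread 1.5.2. The annotation release was not given in the sources used here. The labels name poly(A) selection, but the study's methods give a stranded total RNA kit that removes rRNA and globin mRNA. The deposited result tables hold the authors' normalized values, fold changes and p-values, none of which was used; only their gene names were read, to match symbols to IDs. Animals were placed in groups by their labels.

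Genes with at least 10 counts over the mice of a comparison were fitted with edgeR 4.0.16 (TMM, quasi-likelihood test, limma 3.58.1, R 4.3.3) per pair of groups, with Benjamini-Hochberg adjustment over all genes tested. DESeq2 1.42.0 was the second tool. In simulated counts with 200 changed genes, edgeR recovered 98% of them among 23792 genes for Vehicle TBI versus Vehicle Day 1. It recovered 93% among 23334 for BIO 300 High Day 0 versus Vehicle Day 0, and false calls numbered 5 and 7. Changed genes were drawn from those with higher counts, and the dispersion of every gene was capped. These rates therefore do not extend to members whose reads lie mostly in a single mouse. Levels use TMM over 60 mice. Ratios to Alb added 0.5 to the count of a member. Libraries of a group differed by a chi-square per gene of at least 10.8 in all 150 pairs, so none was a copy. Only animals of different numbers are replicates, and where the labels give no batch, p-values measure the spread between these mice.

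The members and gene lists were chosen with earlier results of these data known. Genes named were Alb, the 2 members of each functional group with the highest mean, every member called with all mice, the members detected in at least 50 mice, the 3 smallest and 3 largest spreads of the ratio to Alb, the leading genes of each other list and the 5 genes most like Alb; members beyond these were named after their values were seen. Alternatives were DESeq2, total counts, other filters, robust dispersion, each mouse left out, other thresholds, and, chosen after seeing the data, odd-numbered or even-numbered mice alone, number as a term, and leaving out libraries with Alb above 10 CPM. Promoter sequences were from RefSeq (GRCm38.p6).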

Additional observations from a re-analysis of the deposited data

Results flagged for a closer look

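In a group of 6 mice, a highest value was flagged when its gap to the next, divided by the range of the group, exceeded Dixon's 95% critical value. That value holds for normally distributed levels. The levels here were strongly skewed within groups, so how often chance would flag a group is not known. Alb was flagged in all 10 groups and the share of counts on the 48 members in 9, each time for an odd-numbered mouse.

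The flagged Alb levels were 6450 CPM in mouse 17, 826 in mouse 29, 455 in mouse 1, 1113 in mouse 9, 939.8 in mouse 21, 18.1 in mouse 33, 1785 in mouse 37, 481 in mouse 43, 16050 in mouse 51 and 5625 in mouse 57. The flagged shares of all counts were 2.52% in mouse 17, 0.535% in mouse 29, 0.379% in mouse 1, 0.863% in mouse 9, 0.391% in mouse 21, 0.541% in mouse 37, 0.191% in mouse 43, 8.83% in mouse 51 and 3.31% in mouse 57. BIO 300 Low Day 1 was flagged for Alb only, at the lowest of these levels.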

How the results depend on the processing

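No paired analysis was possible because animal numbers were unique and the groups shared no replicate numbers. Alternatives to the test of Alb changed its direction in 4 comparisons, none past the threshold: with total counts the difference was 0.24 for Low on Day 0, and by ranks the mean rank difference was -0.83 for Vehicle Day 1 against Day 0, -1.17 for Vehicle TBI against Vehicle Day 0 and 2 for BIO 300 High TBI. At 100 CPM in place of 10, 11 libraries held Alb. Where a value below changed for a reason other than fewer mice or genes, the cause was not tested.

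In Low on Day 0, 1 member was called by DESeq2 (Glul), in odd-numbered mice (Glul), with odd or even number as a term (Saa2), without libraries above 10 CPM of Alb (Pck1) and with edgeR's expression filter, against 0 with robust dispersion and in even-numbered mice (median -0.52). Without the Alb-rich libraries the median was 0.88 in Med on Day 0 and 1.42 in Low on Day 1. For Low on Day 1, DESeq2 called 1, and the median was -2.77 with the expression filter and 0.29 in even-numbered mice. On Day 1, total counts gave 0 calls in Med and High, even-numbered mice 5 and 4, and leaving out Alb-rich libraries 6 and 6. For Vehicle TBI against Vehicle Day 0, total counts gave 0, even-numbered mice 6, odd-numbered mice 0 and leaving out Alb-rich libraries 9. Against Vehicle Day 1, DESeq2 called 12, odd-numbered mice 2 and number as a term 7, and the median was 0.60 in even-numbered mice and -0.61 without Alb-rich libraries.

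With each mouse left out, members called ran from 0 to 3 in Low on Day 0, 1 to 42 in Med and 1 to 34 in High on Day 1, 0 to 44 for Vehicle TBI against Vehicle Day 0 and 3 to 42 against Vehicle Day 1. Medians ran from -7.27 to 6.74, -8.67 to 7.61 and -11.87 to 7.47 in Low, Med and High on Day 0. On Day 1 they ran from -6.19 to -0.084, -2.38 to 6.16 and -3.71 to 4.63. They ran from -7.55 to 7.72 for Vehicle Day 1 against Day 0, -0.015 to 12.12 and 2.47 to 9.12 for Vehicle TBI against Day 0 and Day 1, and -8.36 to 0.18 between irradiated groups. The Alb difference ran from -1.38 to 1.99, -1.78 to 1.87 and -2.35 to 1.35 on Day 0, and from -1.81 to 0.25, -0.29 to 2.60 and -1.37 to 1.39 on Day 1. It ran from -1.38 to 2.13 for Vehicle Day 1 against Day 0, -0.067 to 3.32 for Vehicle TBI against Vehicle Day 1 and -2.85 to 0.91 between irradiated groups. The mice at the ends were 17, 29, 51 and the highest mouse of each BIO 300 group. The calls of Saa1 and Saa2 in Low on Day 0 were lost with robust dispersion, in odd-numbered mice and without each of mice 1 to 6, and that of Saa1 with number as a term; in even-numbered mice and without the Alb-rich libraries both had too few counts to be tested. That of Trf was lost with robust dispersion, without mouse 49, 51, 25, 26, 27, 28 or 30, and in even-numbered (0.56) or odd-numbered mice alone. Glul against Vehicle Day 0 fell under the fold threshold without mouse 50 (0.95) and with total counts (1.00).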
